A study of Mus musculus with 12 samples.

Results

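The RNA of 54 Wnt pathway genes was followed across 4 groups of mouse brain cells. They were the protein-coding genes among the 55862 listed whose symbols name a Wnt ligand, a Frizzled receptor, a Dkk or Sfrp antagonist, an R-spondin or Lgr4, Lgr5 or Lgr6, together with Lrp5, Lrp6, Wif1, Axin1, Axin2, Ctnnb1, Lef1, Tcf7, Tcf7l1 and Tcf7l2. The genes were chosen by name, not by their values, and 41 of the 54 reached a group mean of at least 1 FPKM (fragments corrected for gene length and for library size) in at least 1 group. The study asked what changes when astrocytes are kept as spheres. The labels give the strain C57BL/6 for all 12 samples, while the study's methods name C57BL/6J mice as the source of both NPC groups. ASTs were primary cortical astrocytes of newborn mice, grown as a monolayer with serum and taken at day 0 of sphere culture. To obtain A-iSCs, ASTs were held in floating spheres over agarose for 5 days. P56-NPCs and P0-NPCs were the positive controls, cell suspensions dissociated from the subependymal zone at postnatal day 56 and from the hippocampus at postnatal day 0, with no sorting step described. Each group had 3 samples.

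Wnt proteins are secreted lipid-modified ligands that bind Frizzled receptors. In the canonical branch they also engage the co-receptors Lrp5 and Lrp6, which stops the Axin-containing destruction complex from degrading beta-catenin, so that beta-catenin can act with TCF/LEF factors in the nucleus. R-spondins, acting through Lgr receptors, keep more Frizzled at the cell surface. Dkk, Sfrp and Wif1 proteins are grouped here, by family, as antagonists of the pathway outside the cell. In the brain the pathway is known for patterning the hippocampal region next to the cortical hem, and for the proliferation and differentiation of neural progenitors.

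Between 17077780 and 24452419 fragments were recovered per sample, so that, with a gene length of 1 kilobase, 3 fragments correspond to between 0.103 and 0.187 FPKM. By their fragment counts, AST replicate 2 and A-iSC replicate 3 lay farthest from the other samples of their groups, and results below that rest on a single sample are marked as such. The labels were checked against marker genes. All 8 astrocyte markers reached a mean of 1 FPKM in every group, with a summed level of 143 to 161 FPKM in ASTs, 1211 to 2466 in A-iSCs, 2834 to 3072 in P56-NPCs and 238 to 303 in P0-NPCs. Neural progenitor markers differed in order, with the group mean of Nes highest in ASTs (196 FPKM), that of Sox2 in A-iSCs (208), that of Hes5 in P56-NPCs (19.8) and that of Pax6 in P0-NPCs (4.64). The 6 oligodendrocyte markers summed to 10825 to 12337 FPKM in P56-NPCs and to at most 75.9 FPKM in any other sample, and mitochondrial genes took 16.5 to 17.6% of the fragments in P56-NPCs against 2.94 to 7.03% elsewhere. In such bulk samples, fewer cells of a type and less RNA per cell cannot be told apart.

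Sphere culture for 5 days went with a lower sum of Frizzled RNA and with other shares of the ligands. Compared with ASTs, A-iSCs had less RNA of 6 Frizzled receptors (Fzd1, Fzd2, Fzd4, Fzd5, Fzd7 and Fzd8), of 4 ligands (Wnt4, Wnt5a, Wnt7a and Wnt9a), of the factor Tcf7 and of the antagonist Sfrp1. They had more RNA of the ligand Wnt7b, the receptors Fzd3 and Fzd9 and the Dkk family gene Dkk3. Of the 29 Wnt pathway genes that could be tested in A-iSCs against ASTs, 4 were thus called higher and 12 lower by limma at a Benjamini-Hochberg adjusted p under 0.05, beside 25.2% of all tested genes called higher and 29.6% called lower. The median log2 fold change was -0.21 over the 29 Wnt pathway genes and -0.06 over all tested genes. The other 25 Wnt pathway genes had a mean under 1 FPKM in ASTs and in A-iSCs and were not tested in this comparison. Of the 16 calls, that of Sfrp1 was lost when A-iSC replicate 1 or 2 or AST replicate 1 or 3 was left out (adjusted p from 0.0742 to 0.0913). With all samples it was also lost by library-size scaling, by upper-quartile scaling over genes at 1 FPKM and without the filter on low genes (adjusted p = 0.12, 0.0658 and 0.051).

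**Figure D1:**
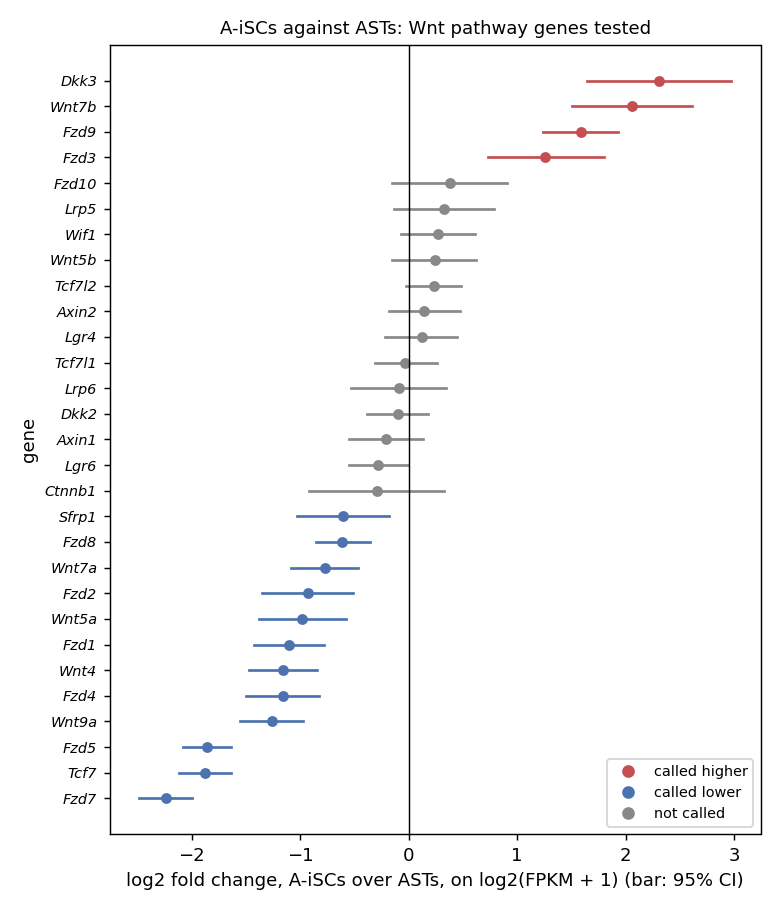
Difference between A-iSCs and ASTs as a log2 fold change (x axis, on log2(FPKM + 1), positive where A-iSCs were higher) for the 29 Wnt pathway genes tested (y axis), as points with bars for the 95% confidence interval, coloured by call. The 4 genes called higher lie between 1.26 and 2.31 and the 12 called lower between -2.24 and -0.60.

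The groups from brain differed from ASTs in more of these genes, as they did in more genes of all kinds. In P56-NPCs, 9 of 33 tested Wnt pathway genes were called higher than in ASTs and 15 lower, beside 39.1% and 39.8% of all tested genes. In P0-NPCs, 17 of 39 were higher and 17 lower than in ASTs, beside 38.1% and 40.9%. Against P56-NPCs, A-iSCs were higher in 14 of 34 tested genes and lower in 10, beside 30.1% and 30.9% of all tested genes. Against P0-NPCs, A-iSCs were higher in 9 of 38 and lower in 19, beside 31.5% and 33.6%. P56-NPCs were higher than P0-NPCs in 9 of 39 genes and lower in 25, beside 39.7% and 39.0%. These counts include genes that passed the filter through 1 of the groups only and so had to be higher in it, which also holds for the single-gene tests of such genes below. Through P0-NPCs alone passed 12 genes against ASTs, 11 against A-iSCs and 10 against P56-NPCs, of which 11, 11 and 10 were called higher in P0-NPCs, beside at least 89.5% of all genes that passed in this way in each of the comparisons. Among the genes that reached 1 FPKM in both groups, 6 of 24 were higher and 14 lower in P0-NPCs than in ASTs (29.7% and 44.6% of all such genes), 7 of 25 higher and 8 lower in A-iSCs than in P0-NPCs (30.3% and 28.4%), and 6 of 26 higher and 15 lower in P56-NPCs than in P0-NPCs (38.1% each). By the same reading 3 of 25 were higher and 11 lower in A-iSCs than in ASTs (19.9% and 29.9% of all such genes), 4 of 23 higher and 11 lower in P56-NPCs than in ASTs (31.0% and 43.6%), and 9 of 22 higher and 5 lower in A-iSCs than in P56-NPCs (30.3% and 25.5%). The comparisons share samples, and each is given with its own values for the genes below.

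A few Wnt pathway genes were set apart in a single group, with a call in the same direction against each of the other groups. In ASTs, Fzd5, Fzd7, Fzd8, Tcf7, Wnt5a and Wnt9a were higher than in each other group (6 of 28 genes tested in all 3 comparisons, beside 21.2% of all genes), while Dkk3, Fzd9 and Wnt7b were lower (12.5% of all genes). In P0-NPCs, 12 of 36 were higher than in each other group (Axin1, Fzd10, Fzd9, Lef1, Rspo1, Rspo2, Rspo3, Sfrp2, Wnt2b, Wnt3a, Wnt6 and Wnt8b), beside 19.7% of all genes, and Lgr4 and Tcf7l2 were lower (15.5%). All of these 12 but Axin1 and Fzd10 passed the filter in at least 1 comparison through P0-NPCs alone, so that nothing is read from their number. The same holds for Fzd5 and Tcf7 among the AST genes above that were higher, for Fzd9 among those lower, and for several in the sets that follow (Sfrp5, Wnt11 and Wnt3, Tcf7 and Wnt5b in P56-NPCs, and Wnt4 in A-iSCs). In P56-NPCs, Lgr4, Sfrp5, Wnt11, Wnt3 and Wnt7a were higher (5 of 31, beside 20.1%) and Axin2, Fzd7, Fzd8, Sfrp1, Tcf7, Wnt5a, Wnt5b and Wnt9a lower (13.0%). In A-iSCs, Fzd4 and Wnt4 were lower than in each other group (2 of 28, beside 3.16%; the call of Fzd4 against P0-NPCs was lost under several settings given below), and 0 of 28 were higher, beside 7.53% of all genes. By limma at an unadjusted p under 0.05, and by limma-voom on the fragments, the latter count was also 0. Scaling by library size alone took Wnt5a out of the AST set, Wnt7a out of the P56-NPC set and Lgr4 out of both NPC sets (adjusted p = 0.0998, 0.85 and 0.417 against ASTs for Wnt5a in P0-NPCs, Wnt7a in P56-NPCs and Lgr4 in P0-NPCs, and 0.182 between A-iSCs and P56-NPCs for Lgr4). Wnt11 was then no longer tested between A-iSCs and P56-NPCs. Among the 41 genes, A-iSCs held the highest of the 4 group means for Wnt5b, Fzd3 and Lrp5. Nothing is read from how often each group was highest, since a gene at 1 FPKM in a single group had to be highest there.

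**Figure D2:**
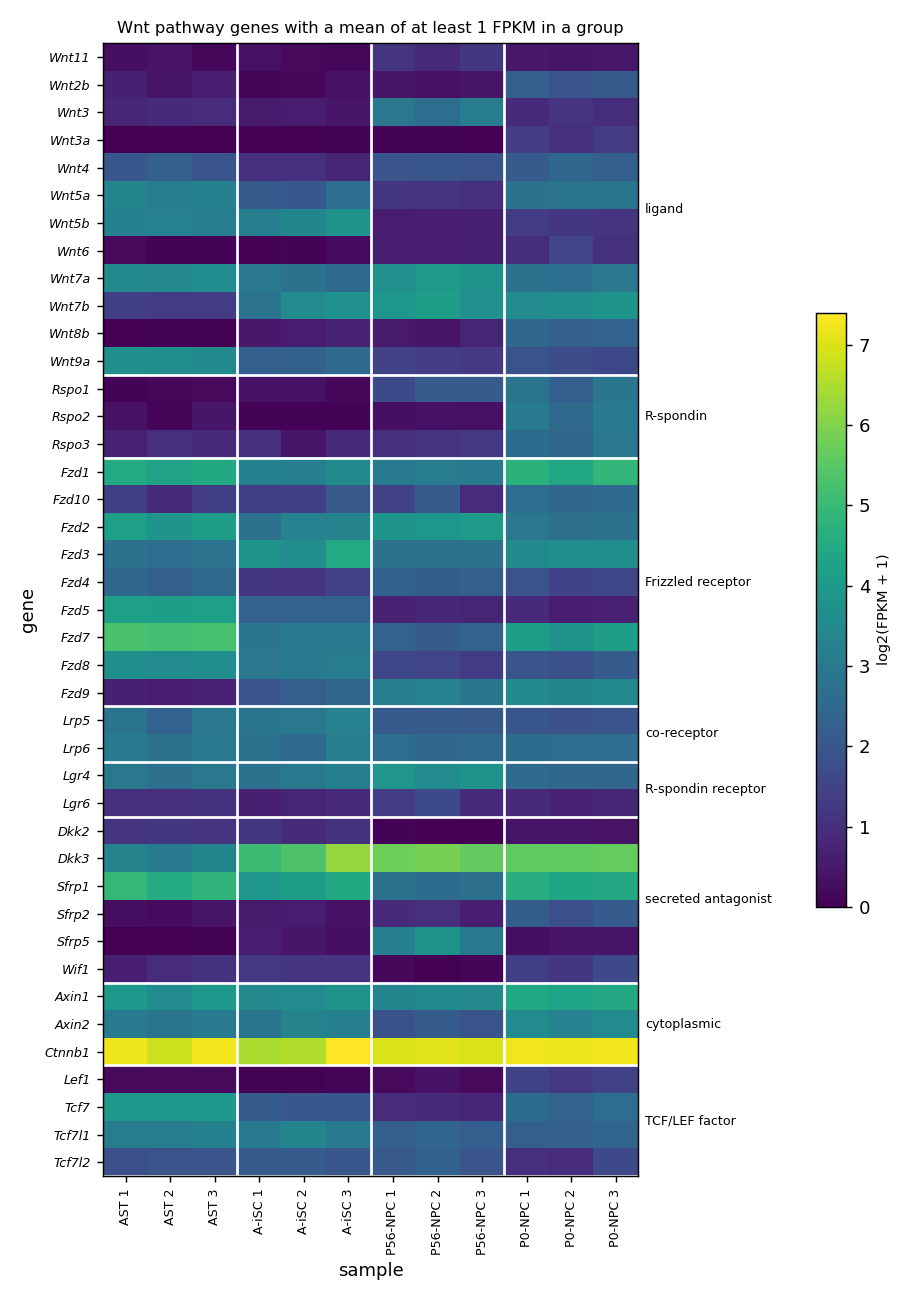
Level of the 41 Wnt pathway genes with a mean of at least 1 FPKM in a group, one row per gene grouped by role and one column per sample, coloured by log2(FPKM + 1). Samples differ more between than within groups for blocks of genes such as Fzd5, Fzd7 and Fzd8 in ASTs and the R-spondins in P0-NPCs, while A-iSC replicate 3 stands apart from the other A-iSCs in genes such as Dkk3 and Ctnnb1.

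TCF/LEF factors bind short DNA words, and the promoters of the Wnt pathway genes were searched for 1 family of them, CTTTGNN with A or T at each N, on both strands. In the RefSeq table (build GRCm38.p6) 36 of the 54 symbols had a promoter, 45 in all, and in the 250 bases before the start site 6 promoters held a word (13.3%), beside 4874 of 32851 promoters of all genes (14.8%). The 6 belonged to Dkk1, Fzd7, Lef1, Tcf7l2, Wnt11 and Wnt5b. Shown here are those of 3 genes whose levels set groups apart below, with the word in capitals, and that of Axin2, a widely used readout of the pathway, in which no such word was found. The Wnt5b and Wnt11 sequences are each that of 1 of several start sites, the others of which held no such word.
Fzd7, chr1:59481897-59482146, plus strand: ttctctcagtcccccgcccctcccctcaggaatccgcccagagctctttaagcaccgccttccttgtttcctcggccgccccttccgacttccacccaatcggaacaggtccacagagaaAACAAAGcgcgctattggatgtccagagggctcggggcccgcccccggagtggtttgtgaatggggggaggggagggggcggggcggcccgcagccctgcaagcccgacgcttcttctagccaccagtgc
Wnt5b, chr6:119449387-119449636, minus strand: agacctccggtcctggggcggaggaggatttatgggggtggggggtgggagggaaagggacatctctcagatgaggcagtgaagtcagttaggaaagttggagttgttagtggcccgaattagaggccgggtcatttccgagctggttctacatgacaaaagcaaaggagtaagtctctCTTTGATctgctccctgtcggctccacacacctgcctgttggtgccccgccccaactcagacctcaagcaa
Wnt11, chr7:98834862-98835111, plus strand: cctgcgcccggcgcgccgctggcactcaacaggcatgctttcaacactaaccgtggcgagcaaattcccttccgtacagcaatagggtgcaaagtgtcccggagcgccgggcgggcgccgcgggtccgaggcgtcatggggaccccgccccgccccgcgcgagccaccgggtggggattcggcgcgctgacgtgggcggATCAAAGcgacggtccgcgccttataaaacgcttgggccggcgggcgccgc
Axin2, chr11:108920099-108920348, plus strand: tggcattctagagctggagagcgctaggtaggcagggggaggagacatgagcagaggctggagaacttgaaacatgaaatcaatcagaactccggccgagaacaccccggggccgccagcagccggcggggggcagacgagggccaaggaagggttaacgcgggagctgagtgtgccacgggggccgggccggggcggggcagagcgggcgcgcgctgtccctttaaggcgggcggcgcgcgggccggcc
Counted from the start site, the word began at -130 in Fzd7, at -71 in Wnt5b and at -51 in Wnt11. The first bases after the RefSeq start sites of the Fzd7, Lef1 and Tcf7l2 promoters with a word were not found in a GENCODE transcript of the gene, and the Fzd7 window lies upstream of the gene start in the deposited table. A match is a description of the letters, and no binding was measured.

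In the FPKM as deposited, the sum over the 19 ligand genes was lower in every A-iSC sample than in every AST. Different genes made up the largest parts of it in the groups. Their sum was 46.7 ± 1.39 FPKM (SD, n = 3) in ASTs, 36.3 ± 6.16 in A-iSCs, 43.4 ± 2.18 in P56-NPCs and 43.5 ± 1.16 in P0-NPCs. A-iSC replicate 3, at 42.5 FPKM, came near the lowest AST, at 45.4. Scaling by library size alone raises A-iSCs relative to ASTs, so the order of these samples need not hold with it. Wnt9a and Wnt7a made up 24.2% and 22.7% of the sum in ASTs, Wnt5b and Wnt7b 27.8% and 26.5% in A-iSCs, and Wnt7b and Wnt7a 32.8% and 30.6% in P56-NPCs. In P0-NPCs Wnt7b was the largest part, with 27.2%, and Wnt8b, which was at most 1.41% elsewhere, made up 9.61%.

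**Figure D3:**
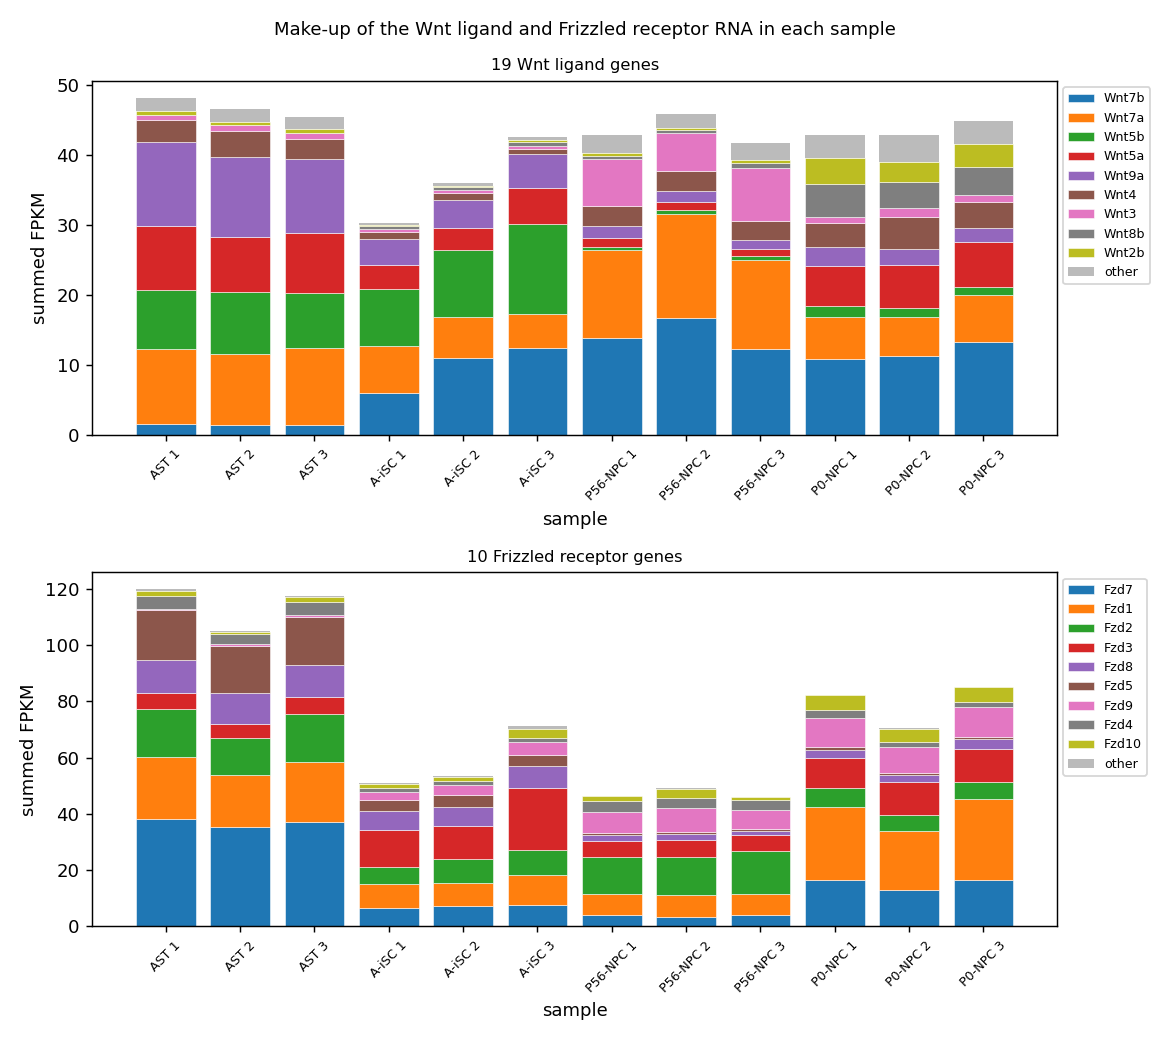
Stacked FPKM of the 19 Wnt ligand genes (upper panel) and of the 10 Frizzled genes (lower panel) in each of the 12 samples, coloured by gene. Wnt7b is a thin band of 1.43 to 1.58 FPKM in the ASTs and a wide one elsewhere, and Fzd7 is widest in the ASTs, at 35.4 to 38.1 FPKM.

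Wnt7b and Wnt7a encode closely related ligands known for their part in brain vessel growth and in neural progenitors. Wnt7b (chr15:85535437-85582473) was at 1.58, 1.45 and 1.43 FPKM in AST replicates 1 to 3, 6.00, 11.0 and 12.4 in A-iSCs, 13.9, 16.8 and 12.3 in P56-NPCs and 10.9, 11.3 and 13.3 in P0-NPCs. Each sample of the other groups lay above all ASTs, and A-iSC replicate 1 was the lowest of them. The mean in A-iSCs was 6.58 times that in ASTs (log2 fold change 2.06 ± 0.23 SE, adjusted p = 0.000316), and the A-iSC level was not called different from either NPC group (adjusted p = 0.0956 for P56-NPCs and 0.294 for P0-NPCs). An antisense gene on the other strand covers 6.61% of its exon bases, and strand-aware counting is not stated. Wnt7a went the other way, with 10.7, 10.1 and 11.0 FPKM in ASTs, 6.76, 5.90 and 4.86 in A-iSCs, 12.5, 14.8 and 12.6 in P56-NPCs and 5.98, 5.49 and 6.67 in P0-NPCs. It fell in A-iSCs by 0.77 on the log2 scale (SE 0.13, adjusted p = 0.00204). Its higher level in P56-NPCs than in ASTs (0.30 ± 0.09 SE, adjusted p = 0.0146) was lost with upper-quartile scaling (adjusted p = 0.104) and was -0.02 when samples were scaled by library size alone.

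Wnt5a and Wnt5b encode related ligands best known for signalling that does not use beta-catenin. Wnt5a (chr14:28504750-28527448) was at 9.08, 7.96 and 8.60 FPKM in ASTs, 3.47, 3.08 and 5.22 in A-iSCs, 1.27, 1.18 and 1.02 in P56-NPCs and 5.77, 6.14 and 6.32 in P0-NPCs. The groups did not overlap, and the order ran from ASTs over P0-NPCs and A-iSCs down to P56-NPCs. A-iSCs were lower than ASTs by -0.98 ± 0.17 on the log2 scale (adjusted p = 0.00237). The call of P0-NPCs below ASTs was lost with scaling by library size alone (-0.18, adjusted p = 0.0998). The call of A-iSCs below P0-NPCs (-0.55, adjusted p = 0.0202) was lost when A-iSC replicate 1 or 2 or P0-NPC replicate 2 or 3 was left out (adjusted p from 0.0613 to 0.0691). Wnt5b (chr6:119432531-119544347) was at 8.45, 8.79 and 7.79 FPKM in ASTs and 8.08, 9.56 and 12.9 in A-iSCs, but at 0.478, 0.540 and 0.572 in P56-NPCs and 1.45, 1.27 and 1.20 in P0-NPCs. ASTs and A-iSCs overlapped, with a difference of 0.24 ± 0.17 (adjusted p = 0.263). Against P56-NPCs the mean in A-iSCs was 19.2 times higher and against P0-NPCs 7.78 times (log2 fold changes 2.85 and 2.25, adjusted p = 8.26e-06 and 1.39e-05).

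Wnt9a and Wnt4 were the other ligands called lower in A-iSCs. Wnt9a (chr11:59306928-59333552), known from joint and blood stem cell development, was at 12.1, 11.3 and 10.5 FPKM in ASTs, 3.67, 3.95 and 4.83 in A-iSCs, 1.77, 1.53 and 1.33 in P56-NPCs and 2.73, 2.33 and 2.05 in P0-NPCs. ASTs lay above every other sample, and A-iSCs lay between ASTs and the NPC groups. The mean in ASTs was 2.73 times that in A-iSCs (log2 fold change of A-iSCs over ASTs -1.26 ± 0.12 SE, adjusted p = 0.000147). Wnt4, a ligand known from kidney and gonad development, was at 3.01, 3.81 and 2.88 FPKM in ASTs, 1.01, 1.0 and 0.685 in A-iSCs, 2.84, 2.93 and 2.72 in P56-NPCs and 3.39, 4.62 and 3.72 in P0-NPCs. A-iSCs were below every sample of the other groups. The log2 fold change was -1.16 ± 0.14 against ASTs, -1.02 ± 0.11 against P56-NPCs and -1.37 ± 0.14 against P0-NPCs (adjusted p = 0.000361, 0.000188 and 7.72e-05).

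Wnt3 and Wnt11 were highest in P56-NPCs. Wnt3 (chr11:103774150-103817957), a canonical ligand, was at 0.737, 0.834 and 0.910 FPKM in ASTs, 0.435, 0.506 and 0.376 in A-iSCs, 6.70, 5.35 and 7.60 in P56-NPCs and 0.867, 1.18 and 0.968 in P0-NPCs. Its mean in P56-NPCs was 7.92 times that in ASTs, 14.9 times that in A-iSCs and 6.51 times that in P0-NPCs (log2 fold changes of P56-NPCs over ASTs 2.04, of A-iSCs over P56-NPCs -2.38 and of P56-NPCs over P0-NPCs 1.90). Wnt11, a ligand of the branch without beta-catenin, was at 0.231, 0.322 and 0.117 FPKM in ASTs, 0.252, 0.132 and 0.108 in A-iSCs, 1.18, 0.873 and 1.29 in P56-NPCs and 0.380, 0.340 and 0.386 in P0-NPCs. All P56-NPC samples lay above the others, although the gene shares 8.80% of its exon bases with a pseudogene on the other strand. The high oligodendrocyte sum in P56-NPCs moved with these genes, as did the ependymal markers, 5 of 5 of which reached 1 FPKM there with a sum of 267 to 368 FPKM against 50.4 to 117 in the other samples. The part of these cells in the result was not tested.

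The remaining ligands belonged to P0-NPCs. Wnt8b (chr19:44493472-44514273), known as a marker of the cortical hem and hippocampal primordium, was at 0.0171, 0.0284 and 0.0310 FPKM in ASTs, 0.414, 0.471 and 0.654 in A-iSCs, 0.447, 0.376 and 0.698 in P56-NPCs and 4.71, 3.77 and 4.04 in P0-NPCs. A-iSCs overlapped with P56-NPCs, and the mean in P0-NPCs was 8.14 times that in A-iSCs (log2 fold change of A-iSCs over P0-NPCs -1.77 ± 0.12, adjusted p = 1.11e-05). Wnt3a (chr11:59248033-59290752), a hem ligand that hippocampal development requires, was at 0 FPKM in the 3 ASTs, 0, 0.0152 and 0.0270 in A-iSCs, 0.0417, 0.0226 and 0 in P56-NPCs and 1.54, 0.995 and 1.46 in P0-NPCs. These values rest on 0 fragments in ASTs, 3 in A-iSCs, 3 in P56-NPCs and 288 in P0-NPCs. It was at least 22.6-fold higher in P0-NPCs than in ASTs, from a floor of 3 fragments in each AST library. The ratio of P0-NPCs to A-iSCs was 85.4 (95% counting interval 28.9 to 416) and that to P56-NPCs was 60.2 (20.4 to 294), which cover counting error only. Wnt2b, also known from the hem, was at 0.568, 0.329 and 0.526 FPKM in ASTs, 0.0945, 0.110 and 0.293 in A-iSCs, 0.357, 0.297 and 0.332 in P56-NPCs and 3.81, 2.81 and 3.25 in P0-NPCs. Wnt6, a ligand known from epithelia, was at 0.136, 0.0225 and 0.0491 FPKM in ASTs, 0, 0.0576 and 0.153 in A-iSCs, 0.552, 0.540 and 0.582 in P56-NPCs and 0.957, 1.94 and 1.06 in P0-NPCs. For each of these 4 ligands every P0-NPC sample was above every other sample.

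The R-spondins showed the same placing. They summed to 1.19 ± 0.219 FPKM in ASTs, 1.03 ± 0.321 in A-iSCs, 4.53 ± 0.856 in P56-NPCs and 17.5 ± 3.80 in P0-NPCs (SD, n = 3). Rspo1 (chr4:124986430-125009099) was at 0.0615, 0.127 and 0.139 FPKM in ASTs, 0.282, 0.282 and 0.115 in A-iSCs, 2.14, 3.41 and 3.35 in P56-NPCs and 6.27, 3.65 and 6.52 in P0-NPCs. It was called higher in both NPC groups than in A-iSCs (log2 fold changes of A-iSCs -1.68 against P56-NPCs and -2.37 against P0-NPCs). Its call between the NPC groups (-0.69, adjusted p = 0.0173) was lost without the filter on low genes (0.0504), without P56-NPC replicate 1 or without P0-NPC replicate 1 or 3 (adjusted p from 0.0579 to 0.0659). Rspo2 was at 0.280, 0.0868 and 0.358 FPKM in ASTs, 0.0485, 0.0494 and 0.0511 in A-iSCs, 0.237, 0.280 and 0.261 in P56-NPCs and 7.22, 4.88 and 7.14 in P0-NPCs, a P0-NPC mean 24.7 times that in P56-NPCs. Rspo3 was at 0.598, 1.05 and 0.836 FPKM in ASTs, 1.01, 0.368 and 0.869 in A-iSCs, 1.03, 1.19 and 1.41 in P56-NPCs and 5.09, 4.56 and 6.81 in P0-NPCs, with 13.1% of its exon bases shared with an antisense gene. Every P0-NPC sample lay above every other sample for Rspo2 and Rspo3, both of which entered the comparison with A-iSCs through P0-NPCs alone (log2 fold changes of A-iSCs over P0-NPCs -2.80 ± 0.15 and -1.90 ± 0.19).

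**Figure D4:**
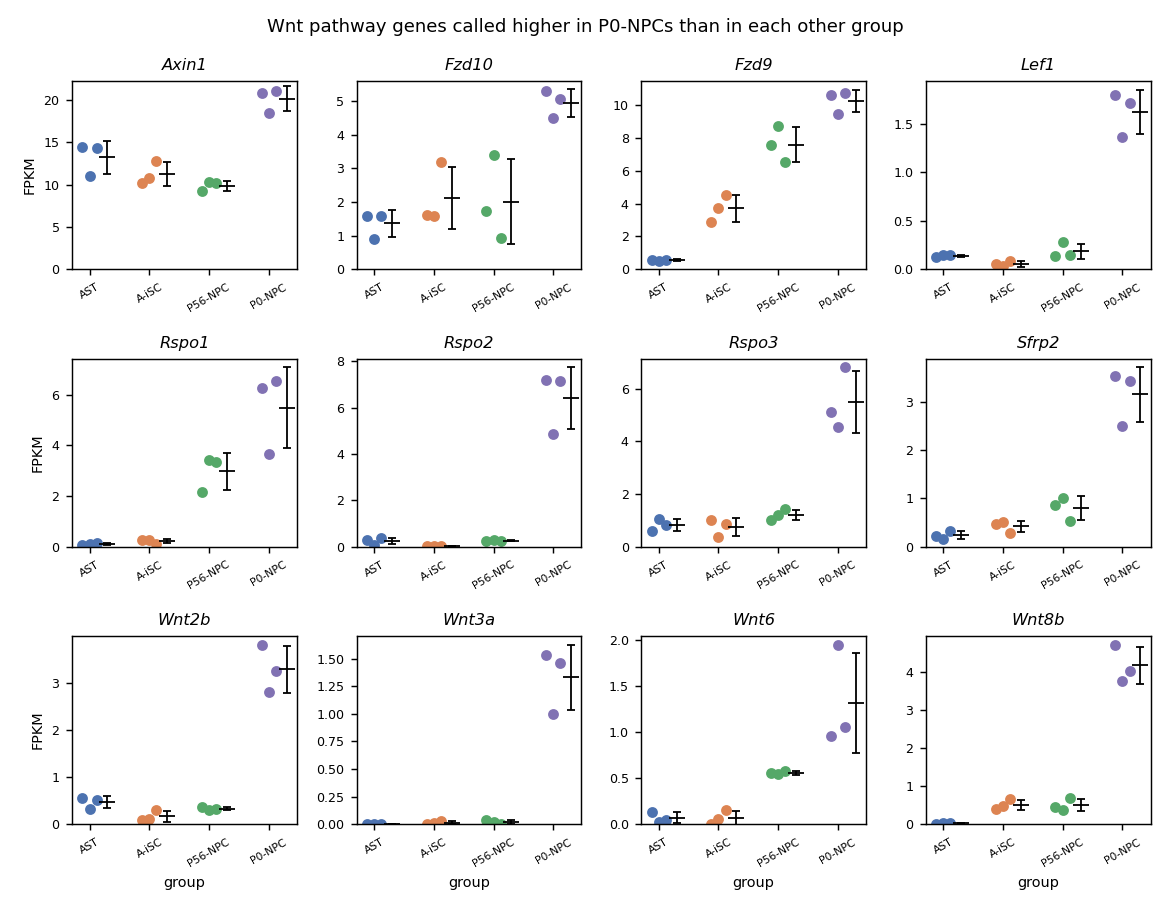
FPKM (y axis, one scale per panel) of the 12 Wnt pathway genes called higher in P0-NPCs than in each other group, with 1 point per sample and the mean with its SD beside the points of each group. The P0-NPC points lie above all others in every panel, and the A-iSC points lie near the AST points for the R-spondins.

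Markers of other cells moved with this group of genes. All 3 Cajal-Retzius markers reached 1 FPKM in P0-NPCs, with a sum of 36.2 to 39.0 FPKM against 0.439 to 3.46 elsewhere, and all 5 immature neuron markers did so, with 313 to 379 FPKM against 7.48 to 19.7 elsewhere. The 6 endothelial, 5 mural and 6 neuron markers likewise all reached 1 FPKM in P0-NPCs, with sums of 72.8 to 74.8, 110 to 124 and 761 to 937 FPKM against at most 4.71, 12.5 and 238 elsewhere. The 7 markers of fibroblasts of meninges and vessels summed to 129 to 149 FPKM in P0-NPCs and 151 to 202 in ASTs, against 4.64 to 10.8 in the other groups. All 7 reached 1 FPKM in P0-NPCs but 4 of 7 in ASTs, where Col1a1 alone was at 131 to 178 FPKM while Dcn, Lum and Slc6a13 were under 1 FPKM. The choroid plexus list of 4 summed to 736 to 3796 FPKM in P0-NPCs and 1486 to 3168 in P56-NPCs, but to at most 4.78 in ASTs and A-iSCs. None of the markers in these lists was at 0 in all P0-NPC samples. Their part in the levels of the Wnt pathway genes was not tested.

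The 10 Frizzled receptor genes had their highest sum in ASTs. They summed to 114 ± 7.94 FPKM in ASTs, 58.4 ± 11.1 in A-iSCs, 47.2 ± 1.66 in P56-NPCs and 79.3 ± 7.89 in P0-NPCs (SD, n = 3). The largest part was Fzd7 in ASTs (32.3%), Fzd3 in A-iSCs (26.3%), Fzd2 in P56-NPCs (29.9%) and Fzd1 in P0-NPCs (31.7%). Fzd7 (chr1:59482424-59486955), with the RefSeq promoter window shown above, was at 38.1, 35.4 and 37.0 FPKM in ASTs, 6.57, 7.08 and 7.42 in A-iSCs, 4.03, 3.44 and 4.11 in P56-NPCs and 16.6, 12.9 and 16.4 in P0-NPCs. The groups did not overlap, and the mean in ASTs was 5.24 times that in A-iSCs (log2 fold change -2.24 ± 0.10 SE, adjusted p = 6.86e-06). Fzd5 (chr1:64730558-64737751), a receptor known from eye and gut, was at 17.6, 16.9 and 17.2 FPKM in ASTs, 4.03, 4.06 and 3.98 in A-iSCs, 0.675, 0.757 and 0.694 in P56-NPCs and 0.866, 0.467 and 0.609 in P0-NPCs. A-iSCs lay between ASTs and the NPC groups, with log2 fold changes of -1.86 ± 0.09 over ASTs, 1.56 ± 0.09 over P56-NPCs and 1.62 ± 0.12 over P0-NPCs. A gene on the other strand covers 17.8% of its exon bases.

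Fzd8 was also highest in ASTs and next in A-iSCs, but P56-NPCs rather than P0-NPCs were lowest. It was at 11.8, 10.9 and 11.4 FPKM in ASTs, 6.58, 7.10 and 7.71 in A-iSCs, 1.99, 1.95 and 1.46 in P56-NPCs and 2.85, 2.60 and 3.46 in P0-NPCs, and was lower in A-iSCs than in ASTs by -0.61 ± 0.10 (adjusted p = 0.00229). Fzd1 was at 22.0, 18.3 and 21.6 FPKM in ASTs, 8.57, 8.21 and 10.7 in A-iSCs, 7.32, 7.66 and 7.23 in P56-NPCs and 26.0, 20.8 and 29.0 in P0-NPCs. ASTs and P0-NPCs overlapped, and A-iSCs were lower than each (log2 fold changes -1.10 ± 0.14 and -1.37 ± 0.15, adjusted p = 0.000475 and 0.000144). Fzd2 was at 17.1, 13.2 and 16.8 FPKM in ASTs, 5.86, 8.74 and 8.88 in A-iSCs, 13.3, 13.7 and 15.3 in P56-NPCs and 6.59, 5.67 and 5.83 in P0-NPCs. Here ASTs overlapped with P56-NPCs, and A-iSCs overlapped with P0-NPCs. The A-iSC level was called lower than that of ASTs (-0.93 ± 0.18, adjusted p = 0.00379) and of P56-NPCs (-0.79 ± 0.16, adjusted p = 0.00407), the second not with scaling by library size alone (adjusted p = 0.167). Fzd4, the receptor for norrin, was at 4.59, 3.62 and 4.94 FPKM in ASTs, 1.27, 1.21 and 1.72 in A-iSCs, 3.94, 3.50 and 3.85 in P56-NPCs and 2.73, 1.78 and 2.0 in P0-NPCs. It was lower in A-iSCs than in ASTs by -1.16 ± 0.14 and than in P56-NPCs by -1.0 ± 0.11. The difference from P0-NPCs (-0.40, adjusted p = 0.0469) was lost without A-iSC replicate 1 or 2 or P0-NPC replicate 1 or 3 (adjusted p from 0.0832 to 0.158), with the replicate block (adjusted p = 0.0679) and without the filter (adjusted p = 0.107).

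Fzd3 and Fzd9 were the receptors with more RNA in A-iSCs than in ASTs. Fzd3 (chr14:65192449-65262463), known for axon guidance and planar polarity, was at 5.83, 5.22 and 6.04 FPKM in ASTs, 13.3, 11.5 and 22.2 in A-iSCs, 5.80, 5.90 and 5.90 in P56-NPCs and 10.7, 11.9 and 11.9 in P0-NPCs. The spread in A-iSCs came from replicate 3, and every A-iSC sample was above all ASTs and P56-NPCs but not above all P0-NPCs. The log2 fold change over ASTs was 1.26 ± 0.23 (adjusted p = 0.00268), and that over P0-NPCs was not called (adjusted p = 0.184). Fzd9 (chr5:135248938-135251230), a receptor known from hippocampal progenitors, was at 0.572, 0.495 and 0.587 FPKM in ASTs, 2.88, 3.72 and 4.51 in A-iSCs, 7.54, 8.69 and 6.54 in P56-NPCs and 10.6, 9.45 and 10.7 in P0-NPCs. The groups did not overlap and A-iSCs lay between ASTs and P56-NPCs, with a mean 6.72 times that in ASTs (log2 fold change 1.59 ± 0.15, adjusted p = 0.000114). Fzd10 was at 1.60, 0.895 and 1.59 FPKM in ASTs, 1.60, 1.58 and 3.18 in A-iSCs, 1.72, 3.39 and 0.934 in P56-NPCs and 5.30, 4.49 and 5.07 in P0-NPCs. Its first 3 groups overlapped and P0-NPCs lay above them.

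The co-receptors differed less. Lrp5 was at 6.27, 3.99 and 6.73 FPKM in ASTs, 6.40, 6.74 and 8.68 in A-iSCs, 3.28, 3.47 and 3.16 in P56-NPCs and 2.99, 2.57 and 2.86 in P0-NPCs. It was not called between A-iSCs and ASTs (0.33 ± 0.19, adjusted p = 0.193), and was higher in A-iSCs than in P56-NPCs (0.93 ± 0.12) and P0-NPCs (1.11 ± 0.13). Lrp6 was at 7.39, 5.72 and 7.15 FPKM in ASTs, 5.81, 4.98 and 8.34 in A-iSCs, 5.37, 4.54 and 4.94 in P56-NPCs and 5.14, 5.31 and 5.49 in P0-NPCs, with A-iSCs overlapping every other group. Its calls below ASTs were weak: that of P56-NPCs (adjusted p = 0.0135) was lost without P56-NPC replicate 2 (0.0519), and that of P0-NPCs (0.0315) without any 1 of the P0-NPC libraries or without AST replicate 1 or 3 (adjusted p from 0.0598 to 0.116). With all samples the latter was lost under library-size scaling, upper-quartile scaling over genes at 1 FPKM, no filter and a joint fit of the groups (adjusted p = 0.746, 0.287, 0.0531 and 0.0919). Of the R-spondin receptors, Lgr4 was at 6.77, 5.62 and 6.75 FPKM in ASTs, 5.91, 6.96 and 8.21 in A-iSCs, 13.5, 10.9 and 12.6 in P56-NPCs and 5.04, 4.70 and 4.65 in P0-NPCs. P56-NPCs lay above all other samples, by 0.86 ± 0.10 over ASTs (adjusted p = 0.000188), and A-iSCs overlapped with ASTs. Its call of P0-NPCs below ASTs was lost with library-size scaling (-0.10, adjusted p = 0.417) and with upper-quartile scaling over genes at 1 FPKM (-0.18, adjusted p = 0.112). Its call of A-iSCs above P0-NPCs (0.46, adjusted p = 0.0148) was lost without P0-NPC replicate 2 or 3 (adjusted p = 0.0519 and 0.0552). Lgr6 was at 1.05, 1.04 and 1.14 FPKM in ASTs, 0.565, 0.712 and 0.866 in A-iSCs, 1.51, 2.16 and 0.851 in P56-NPCs and 0.842, 0.672 and 0.811 in P0-NPCs. Every A-iSC sample was below every AST, and the difference, not called (-0.28 ± 0.12, adjusted p = 0.0761), was called without A-iSC replicate 3 (0.0246), with upper-quartile scaling over genes above 0 (0.0406) and by limma-voom (0.0411). Its calls of ASTs and of P56-NPCs above P0-NPCs (adjusted p = 0.0475 and 0.0497) were lost under library-size scaling (0.408 and 0.451), without the filter (0.0866 and 0.114) and with the replicate block (0.093 and 0.0597). The former was also lost without any 1 of the 6 libraries compared (adjusted p from 0.0538 to 0.146), and the latter without any but P56-NPC replicate 3 (adjusted p from 0.0852 to 0.138).

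Among the genes grouped as antagonists Dkk3 had the highest level outside ASTs. Dkk3 (chr7:112116017-112159057), the divergent member of its family, was at 8.82, 7.31 and 9.17 FPKM in ASTs, 32.4, 39.4 and 73.4 in A-iSCs, 53.0, 58.0 and 48.5 in P56-NPCs and 47.5, 47.4 and 48.8 in P0-NPCs. All other samples lay above ASTs, and A-iSC replicate 3 was the highest of all. The mean in A-iSCs was 5.74 times that in ASTs (log2 fold change 2.31 ± 0.28, adjusted p = 0.00045), and A-iSCs were not called different from P56-NPCs (adjusted p = 0.529) or P0-NPCs (0.827). Sfrp1 (chr8:23411502-23449632), a secreted Wnt-binding protein, was at 29.3, 22.6 and 27.3 FPKM in ASTs, 13.7, 16.6 and 21.4 in A-iSCs, 5.76, 5.19 and 5.64 in P56-NPCs and 24.0, 19.3 and 21.3 in P0-NPCs. Every A-iSC sample was below every AST, by -0.60 ± 0.18 (adjusted p = 0.0253), a call that was lost under the settings given above, and was above every P56-NPC sample, by 1.46 ± 0.16. The 9 genes grouped as antagonists, with Dkk3 among them, summed to 38.1 ± 4.20 FPKM in ASTs, 69.3 ± 25.3 in A-iSCs, 69.6 ± 7.64 in P56-NPCs and 75.9 ± 3.41 in P0-NPCs (SD, n = 3). Dkk3 made up 22.2% of the sum in ASTs and 68.6% in A-iSCs, and Sfrp1 69.3% and 25.7%. The higher sum in A-iSCs than in ASTs was thus that of Dkk3 and is not read as a rise of antagonists in general.

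Sfrp5 was highest in P56-NPCs and Sfrp2 in P0-NPCs. Sfrp5 (chr19:42197971-42202252) was at 0, 0 and 0.0283 FPKM in ASTs, 0.470, 0.376 and 0.216 in A-iSCs, 8.43, 12.9 and 6.97 in P56-NPCs and 0.207, 0.343 and 0.344 in P0-NPCs. ASTs held 1 fragment of it in all and P56-NPCs 888, a ratio of 990 with a 95% counting interval of 177 to 3.92e+04. The P56-NPC mean was 26.6 times that in A-iSCs and 31.6 times that in P0-NPCs. Sfrp2, with 16.1% of its exon bases shared with an antisense gene, was at 0.222, 0.160 and 0.325 FPKM in ASTs, 0.461, 0.508 and 0.295 in A-iSCs, 0.856, 1.01 and 0.536 in P56-NPCs and 3.53, 2.50 and 3.42 in P0-NPCs, a P0-NPC mean 7.49 times that in A-iSCs and 3.93 times that in P56-NPCs. Dkk2 was at 1.22, 1.32 and 1.21 FPKM in ASTs, 1.31, 0.874 and 1.13 in A-iSCs, 0.0466, 0.0168 and 0.0164 in P56-NPCs and 0.330, 0.343 and 0.314 in P0-NPCs, so that ASTs and A-iSCs overlapped above the NPC groups. Wif1 was at 0.541, 0.935 and 1.13 FPKM in ASTs, 1.33, 1.21 and 1.15 in A-iSCs, 0.119, 0 and 0.0750 in P56-NPCs and 1.57, 1.27 and 2.12 in P0-NPCs. It was higher in A-iSCs than in P56-NPCs (1.07 ± 0.11, adjusted p = 0.000124), and its call of P0-NPCs above ASTs (0.51, adjusted p = 0.0199) was lost without P0-NPC replicate 3 or AST replicate 1 (adjusted p = 0.0687 and 0.0638) and without the filter (0.0562).

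Inside the cell, beta-catenin RNA was high in every group. Ctnnb1 (chr9:120929216-120960507) was at 149, 113 and 153 FPKM in ASTs, 89.8, 92.5 and 168 in A-iSCs, 126, 133 and 125 in P56-NPCs and 151, 148 and 152 in P0-NPCs. A-iSC replicate 3 was above every other sample while the other A-iSCs were below all of them, and the difference from ASTs was not called (-0.29 ± 0.27, adjusted p = 0.384). Without A-iSC replicate 3 it was called at -0.58 (adjusted p = 0.0206). Exons of Ulk4 on the other strand cover 14.6% of its exon bases. Axin1, a scaffold of the destruction complex, was at 14.4, 11.0 and 14.3 FPKM in ASTs, 10.2, 10.8 and 12.8 in A-iSCs, 9.21, 10.3 and 10.1 in P56-NPCs and 20.9, 18.4 and 21.1 in P0-NPCs. P0-NPCs lay above all others, and the lower level of P56-NPCs than of ASTs (-0.38, adjusted p = 0.018) was lost without P56-NPC replicate 1 or AST replicate 1 or 3 (adjusted p from 0.061 to 0.0691). Axin2 (chr11:108920349-108950783), a scaffold that the canonical pathway itself induces, was at 7.50, 6.29 and 7.28 FPKM in ASTs, 6.51, 8.95 and 8.24 in A-iSCs, 2.67, 3.47 and 2.77 in P56-NPCs and 10.8, 8.64 and 10.9 in P0-NPCs. ASTs and A-iSCs overlapped (log2 fold change 0.14 ± 0.14, adjusted p = 0.414). P56-NPCs were below all other samples, and A-iSCs were higher than P56-NPCs by 1.16 ± 0.14 (adjusted p = 0.000346).

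The TCF/LEF factors each took their own order. Tcf7 (chr11:52252371-52283331), also called TCF1, was at 14.3, 13.8 and 14.3 FPKM in ASTs, 3.43, 3.01 and 2.92 in A-iSCs, 0.916, 0.846 and 0.744 in P56-NPCs and 5.18, 4.15 and 5.35 in P0-NPCs. The groups did not overlap, and the mean in ASTs was 4.54 times that in A-iSCs (log2 fold change -1.88 ± 0.10, adjusted p = 1.11e-05). Lef1 (chr3:131110471-131224356) was at 0.129, 0.146 and 0.147 FPKM in ASTs, 0.0565, 0.0287 and 0.0891 in A-iSCs, 0.131, 0.276 and 0.145 in P56-NPCs and 1.79, 1.36 and 1.71 in P0-NPCs. It was thus low outside P0-NPCs, whose mean was 27.9 times that in A-iSCs, and an antisense gene covers 13.7% of its exon bases. Tcf7l1, known mainly as a repressor, was at 7.68, 7.82 and 8.54 FPKM in ASTs, 7.37, 9.07 and 7.15 in A-iSCs, 3.74, 4.30 and 3.65 in P56-NPCs and 3.72, 3.84 and 4.18 in P0-NPCs. A-iSCs overlapped with ASTs and were above the NPC groups (0.85 ± 0.12 over each). Tcf7l2 was at 2.47, 2.72 and 2.69 FPKM in ASTs, 3.35, 3.46 and 2.95 in A-iSCs, 3.16, 3.93 and 2.84 in P56-NPCs and 1.04, 0.928 and 2.11 in P0-NPCs. Its difference between A-iSCs and ASTs (0.23 ± 0.10, adjusted p = 0.103) was called without A-iSC replicate 3 (0.28, adjusted p = 0.0336), and with all samples under library-size scaling (0.39, adjusted p = 0.0187) and upper-quartile scaling over genes at 1 FPKM (0.35, adjusted p = 0.0294). The 4 factors summed to 24.9 ± 0.648 FPKM in ASTs, 14.3 ± 1.23 in A-iSCs, 8.23 ± 1.02 in P56-NPCs and 11.8 ± 1.54 in P0-NPCs (SD, n = 3).

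The 13 genes that stayed under a mean of 1 FPKM in every group were 7 ligands (Wnt1, Wnt2, Wnt8a, Wnt9b, Wnt10a, Wnt10b and Wnt16), Fzd6, Rspo4, Lgr5, Dkk1, Dkk4 and Sfrp4. They ranged from 0 to 1.07 FPKM and from 0 to 106 fragments in a sample. Lgr5, the R-spondin receptor best known from intestinal stem cells, was at 0.029 to 0.103 FPKM, with 5 to 29 fragments. They entered no test with the filter on low genes. Without it, limma called 4 of the 13 lower in A-iSCs than in ASTs and 0 higher. Of all 30439 genes then tested, 4289 were called lower and 4336 higher. The 3 ASTs and the 3 A-iSCs held 196 and 140 fragments of Sfrp4, 119 and 9 of Wnt2, 47 and 6 of Wnt10b and 14 and 1 of Wnt10a.

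Other genes of the pathway were read from lists by role, each value here being that of A-iSCs against ASTs and each count standing beside 25.2% of all tested genes called higher and 29.6% called lower. Over the lists together, apart from the Wnt pathway genes themselves, 17 of 66 tested genes were called higher and 28 lower. The number lower was 18 without A-iSC replicate 2, 18 without AST replicate 3 and 18 with library-size scaling. Of all tested genes, those called lower also fell, from 4165 of 14087 to 3354 of 14070, 3328 of 14101 and 2989 of 14297 in the same order. The calls among secretion genes went in both directions. Of 13 tested genes of secretion and the matrix side, 4 were called higher and 9 lower, with a median log2 fold change of -0.87 beside -0.06 over all genes. Wls, which carries Wnt proteins to the cell surface, had a mean of 15.3 ± 3.67 FPKM (SD, n = 3) in A-iSCs against 42.6 ± 4.26 in ASTs (-1.44, adjusted p = 0.000485), while Porcn, the enzyme that attaches their lipid, had 6.05 ± 1.02 in A-iSCs against 2.47 ± 0.727 in ASTs (1.03, adjusted p = 0.00255). The extremes of the list were Ndp, which encodes the Fzd4 ligand norrin (3.06 ± 0.277 and 16.7 ± 4.69 FPKM; 2.10), and the glypican Gpc4 (220.7 ± 17.0 and 31.5 ± 3.59 FPKM; -2.77). Notum, which removes the lipid from Wnt proteins, fell from 5.66 ± 0.114 to 1.56 ± 0.303 FPKM (-1.39). Apcdd1, a membrane inhibitor, rose from 0.391 ± 0.0513 to 1.75 ± 0.725 FPKM (0.95). Adgra2 and Reck, co-activators of Wnt7 signalling named here after their values were seen, were both lower in A-iSCs, with 6.83 ± 1.18 and 0.558 ± 0.0305 FPKM for Adgra2 (-2.32) and 2.70 ± 0.698 and 1.48 ± 0.128 for Reck (-0.56).

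Of 7 tested co-receptor and turnover genes, 1 was higher, Lrp4 (0.72), and 5 were lower, with Ror1, a receptor for Wnt5a, at the far end (4.34 ± 0.357 FPKM in ASTs and 0.467 ± 0.0695 in A-iSCs, -1.86). Znrf3, which removes Frizzled from the surface, was lower by -0.31 (adjusted p = 0.0327), and its relative Rnf43 stayed under 1 FPKM and was not tested. Of 17 cytoplasmic transducers, 2 were higher and 4 lower, shares below those over all genes, from Apc2 (0.45) to Dact3 (-0.99), with a median of -0.00. Of 14 nuclear partners of beta-catenin, 5 were higher and 6 lower, from the co-repressors Tle2 and Tle4 (1.0 each) to the inhibitor Ctnnbip1 (-0.82).

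Of 11 planar polarity genes, 4 were higher and 2 lower, from the cadherin Celsr1 (1.39) to Vangl1 (-0.54), with a median of 0.34. Of 10 tested genes widely used as beta-catenin targets, a list that shares members with those above, 2 were higher and 5 lower. Their extremes were the receptor Tnfrsf19 (1.83 ± 0.327 FPKM in ASTs and 23.0 ± 8.94 in A-iSCs, 3.03) and the cyclin Ccnd1 (428 ± 92.5 and 12.3 ± 2.13 FPKM, -5.00). The 4 cycling markers moved with Ccnd1, with a sum of 88.3 to 94.9 FPKM in ASTs and 14.5 to 16.9 in A-iSCs, and all 4 reached 1 FPKM in each of these groups. Their part in its level was not tested. Microglia markers also differed between the groups, with 97.5 to 129 FPKM in ASTs (6 of 7 at 1 FPKM) and 1092 to 1513 in A-iSCs (7 of 7), and their part in the Wnt pathway genes was not tested.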

How the data were processed

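RNA of 12 samples in 4 groups of 3 was sequenced, from libraries made with a NEBNext Ultra kit that is not stated to keep strand. The authors deposited 1 table of FPKM values with gene lengths, already scaled between samples. The unit was read from the values, and the submitters' processing notes name Bowtie 0.12.2 and mm8, while 54899 of 55154 identifiers shared with GENCODE M21 have their GRCm38 positions, as have 53 of the 54 Wnt pathway genes. FPKM times gene length gave whole fragments for 100% of values (tolerance 0.05 fragments), 17077780 to 24452419 per sample, and the library size behind the FPKM was 0.744 to 1.218 times these totals. A floor of 3 fragments and 95% intervals cover counting error only.

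Groups were taken from the sample labels and compared in pairs with limma 3.58.1 (R 4.3.3, lmFit and eBayes with a trend) on log2(FPKM + 1), over genes with a mean of at least 1 FPKM in at least 1 of the groups compared. The threshold for a call was 0.05, applied to p-values adjusted by Benjamini and Hochberg's method over all tested genes. Fold changes on this scale understate those of low genes. Since the labels do not say that the samples of a group are separate cultures or animals, p-values measure the spread between these samples, which may be technical. DESeq2, named in the study's methods, was not run, since FPKM was deposited and limma-voom served for the recovered fragments. On simulated data for A-iSCs over ASTs (13364 genes), the test called 9 of 50 genes changed 1.5-fold, 40 of 50 changed 2-fold, 49 of 49 tested at 4-fold and 50 of 50 at 8-fold, with 16 false calls. The simulation gave every gene the same spread beyond counting error and held no outlying sample. Its counts therefore do not give the power or the false calls of the comparison itself.

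Genes with a mean of at least 1 FPKM in a group were described with their values in every sample. Of the companion lists, the called genes with the largest and smallest fold change were named, together with Wls, Porcn, Notum, Znrf3, Rnf43 and Apcdd1. Of the neural progenitor markers, 1 is not reported here. The genes, lists and rules were chosen with earlier results of these data known. Alternatives were 2 kinds of upper-quartile scaling (over genes above 0 and, chosen after seeing the data, over genes at 1 FPKM), scaling by library size alone, no filter, a pseudocount of 0.1, a block for the replicate number, a joint fit of all 4 groups, limma-voom on the recovered fragments, and leaving out each sample. Figures were drawn with matplotlib 3.10.9, and intervals computed with scipy 1.17.1, under Python 3.11.15.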

Additional observations from a re-analysis of the deposited data

How the results depend on the processing

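Of 160 calls of Wnt pathway genes in the 6 comparisons, 141 stayed past the threshold in the same direction under every alternative that tested the gene. The other 19 missed it under at least 1, of which 12 under a fit that left out a sample. A gene that an alternative did not test, such as Wnt11 between A-iSCs and P56-NPCs with library-size scaling, was not counted as lost there. Counts of Wnt pathway genes called ranged, when samples were left out, from 4 to 5 higher and 11 to 14 lower in A-iSCs over ASTs, 9 to 11 and 14 to 18 in P56-NPCs over ASTs, 16 to 18 and 15 to 17 in P0-NPCs over ASTs, 14 to 14 and 10 to 13 in A-iSCs over P56-NPCs, 8 to 10 and 17 to 22 in A-iSCs over P0-NPCs, and 8 to 11 and 23 to 25 in P56-NPCs over P0-NPCs. Under the other alternatives these counts ranged, in the same order, from 4 to 6 and 11 to 18, 7 to 12 and 15 to 20, 17 to 21 and 13 to 19, 14 to 18 and 6 to 14, 9 to 9 and 18 to 24, and 6 to 10 and 24 to 31. Without the filter, 8597 of 32717 tested genes in place of 5713 of 15010 were called higher in P0-NPCs over ASTs. In A-iSCs over ASTs, 3550 genes were higher and 4165 lower as deposited, 4563 and 2989 with scaling by library size alone, 3122 and 4819 with upper-quartile scaling over genes above 0, and 4216 and 3231 with upper-quartile scaling over genes at 1 FPKM. Scaling by library size alone shifted the median log2 fold change of all genes from -0.06 to 0.13 in A-iSCs over ASTs, from -0.03 to -0.34 in P56-NPCs over ASTs, from -0.07 to 0.21 in P0-NPCs over ASTs, from 0.03 to 0.49 in A-iSCs over P56-NPCs and from 0.01 to -0.53 in P56-NPCs over P0-NPCs. The splits then were 4569 higher and 7559 lower against 5924 and 6032 in P56-NPCs over ASTs, 7106 and 4860 against 5713 and 6146 in P0-NPCs over ASTs, 8329 and 2857 against 4532 and 4643 in A-iSCs over P56-NPCs, and 3438 and 9428 against 6115 and 6011 in P56-NPCs over P0-NPCs. With it, 6 Wnt pathway genes in place of 10 were called lower in A-iSCs than in P56-NPCs. Fzd2, Lgr4 and Fzd9 then missed the threshold (adjusted p = 0.167, 0.182 and 0.0524), and Wnt11 no longer reached the minimum of 1 FPKM.

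The direction of uncalled differences of A-iSCs over ASTs turned for Tcf7l1 (-0.03 as reported, 0.16 by library size, 0.11 by the upper quartile over genes at 1 FPKM, -0.12 to 0.03 without a sample), Lrp6 (-0.09 as reported, 0.10 and 0.05 with the same scalings, -0.27 to 0.05 without a sample) and Dkk2 (-0.10 as reported, 0.02 by library size). That of Wnt7a in P56-NPCs over ASTs, called at 0.30, was -0.02 by library size. The cause was not tested. The same replicate numbers in different groups did not pair the samples: the correlations of A-iSCs with ASTs were -0.38, 0.34 and 0.43 by number, and those of the other pairs of groups lay between -0.14 and 0.10. With the replicate block, 4 higher and 12 lower genes were called in A-iSCs over ASTs, 9 and 15 in P56-NPCs over ASTs, 18 and 17 in P0-NPCs over ASTs, 14 and 10 in A-iSCs over P56-NPCs, 9 and 18 in A-iSCs over P0-NPCs, and 8 and 25 in P56-NPCs over P0-NPCs. Depth limits the genes under 1 FPKM, for which a few fragments decide the value.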
